A study of Mus musculus with 8 samples.

Results

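The E protein genes and the Id genes encode the opposing sides of a helix-loop-helix network, and all 7 of them in mouse were followed here: the E protein genes Tcf3, Tcf4 and Tcf12, and the inhibitor genes Id1, Id2, Id3 and Id4. They were chosen by name, as the probes whose annotated gene was one of these symbols or an older synonym, and they make up 7 of the 27337 genes named on the array. Together they had 18 probes. Probes annotated as Pan2, an older synonym of a member, were left out, because that name is now the symbol of another gene. Tcf3 (the gene of E2A, with its splice products E12 and E47), Tcf4 (E2-2) and Tcf12 (HEB) are not the Wnt pathway factors Tcf7l1 and Tcf7l2 that once shared the symbols Tcf3 and Tcf4. The reference accessions of the probes were used to keep them apart where a probe had one. Probes without one were taken by symbol. Among them was the brightest Tcf4 probe, which lies on chromosome 18 like the other Tcf4 probes.

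E proteins bind the DNA motif called the E-box (CANNTG) as pairs, either with each other or with tissue-restricted partners of the same family. Id proteins carry the dimerisation region but lack the basic region that touches DNA, so that an E protein paired with an Id protein cannot bind. In lymphoid progenitors E2A is required together with EBF1 for the B-cell programme, whereas high Id2 is a property of innate lymphoid cells, and the balance of both sides is held to bias lineage choice.

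The cells were c-Kit+ fetal liver progenitors of C57Bl/6 background that carry no functional Ebf1 (genotype Ebf1-/- in all 3 groups). They were enriched by magnetic sorting and plated on OP9 feeder cells, a mouse stromal line, in medium that held stem cell factor and Flt3 ligand, each at 10 ng/ml, and interleukin 7 at 5 ng/ml. Retroviruses based on the pMys vector, with GFP as a marker, introduced the mutant protein (Ebf1-H240A, 3 arrays), the wild-type protein (Ebf1wt, 3 arrays) or GFP alone (Empty, 2 arrays), and GFP+ cells were collected after 36 h. In Ebf1-H240A an alanine replaces a histidine, and the mutant is known to bind CNOT3, part of the CCR4-NOT complex, less well than the wild-type protein. The comparisons ask what each form of EBF1 changed relative to Empty and where both forms differed, in progenitors whose EBF1 came from a virus. Both comparisons with Empty share the same 2 control arrays, so their values are given side by side and are not independent.

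Each array was hybridised with 1 labelled sample, and the values below are log2 of the scanner's processed signal after the arrays were scaled to a common 75th percentile. A difference of 1 on this scale is a doubling. Per array, 54.6% to 59.6% of all probes passed the scanner software's test for a signal well above background, no spot was saturated (0 on each array), and arrays of a group correlated at r = 0.991 to 0.995 across genes. The brighter Ebf1 probe gave 10.44, 10.33 and 10.15 with Ebf1-H240A, 10.18, 10.17 and 10.19 with Ebf1wt, and 10.10 and 10.19 with Empty. These ranges overlapped, so this probe does not check the labels or the amount of protein. The other Ebf1 probe read 1.67 to 3.36 and was well above background on only 3 of the 8 arrays. Kit was well above background on all 8 arrays. The arrays lay on 2 slides that were scanned separately, and each slide held all 3 groups, but both forms of EBF1 were spread unequally. Slide 1 held Ebf1-H240A 1, Ebf1-H240A 2, Ebf1wt 2 and Empty 1. Slide 2 held Ebf1-H240A 3, Ebf1wt 1, Ebf1wt 3 and Empty 2. The main fit had no term for the slide. A gene is called changed where its adjusted p was under 0.05 over all 16309 genes tested with limma, and values are given with the standard error (SE) of that fit.

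Of the 18 probes, 15 were well above background on all 8 arrays and 3 on none: both Id4 probes and 1 of the 5 Tcf12 probes. Id4 was therefore not tested, which left 6 genes. The probe that represents Id2, the gene with the most unequal set of probes here, covers the end of its reading frame. It is shown first, with the stop codon in capitals, because a second Id2 probe beyond it behaved differently. Its 60 bases are spread over chr12:25780183-25780530 of mm9 on the minus strand, so that they are not contiguous in the genome.
Id2 probe over the stop codon: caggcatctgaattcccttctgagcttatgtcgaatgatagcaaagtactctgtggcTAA
The second sequence is the stretch of 250 bases before the start of Id2, shown because Id2 differed between both forms of a DNA-binding protein. It was taken from RefSeq (chr12:25096093-25096342 of GRCm38.p6, minus strand). Capitals mark the only match to CCCNNGGG, the core of the motif EBF1 is known to recognise, at position -237 from the start, and the only E-box, CAGCTG, at position -196.
Id2 upstream: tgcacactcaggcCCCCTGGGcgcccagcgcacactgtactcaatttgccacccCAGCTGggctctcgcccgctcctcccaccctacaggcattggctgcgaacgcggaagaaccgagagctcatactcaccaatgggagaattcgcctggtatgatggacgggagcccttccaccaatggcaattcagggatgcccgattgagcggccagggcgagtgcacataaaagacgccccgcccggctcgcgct
CCCNNGGG reads the same on both strands and was found in 13.7% of 32851 promoter windows of 300 bases, and CAGCTG in 16.3%. RefSeq windows were at hand for 5 of the 7 genes, 7 windows in all. Id1 and Tcf4 had no window and were not searched. Among the windows at hand CCCNNGGG was also in that of Id4, and CANNTG, which 72.3% of all windows hold, was absent from those of Id3 and Id4. Such a match describes the letters and does not show a bound site.

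Among the 6 genes tested, Id1 rose with both forms of EBF1 and Tcf4 and Id2 rose with Ebf1-H240A, while none (0) of the 6 fell in any of the 3 comparisons. With Ebf1-H240A against Empty, 3 of 6 rose, where 44.6% of all genes were called and 21.6% were called higher. With Ebf1wt against Empty, 1 of 6 rose, where 38.4% of all genes were called and 17.2% were called higher. Between Ebf1-H240A and Ebf1wt, Id1 and Id2 were higher with the mutant, 2 of 6, where 6.36% of all genes were called and 3.64% were called higher. No member was lower at an unadjusted p under 0.05 against Empty (0 in both limma comparisons), and 1, Tcf3, was lower with Ebf1-H240A than with Ebf1wt. The median difference of the 6 genes was 0.15 with Ebf1-H240A against Empty, 0.05 with Ebf1wt against Empty and 0.17 between both forms, against 0.00, -0.04 and 0.02 for all genes. Values of the 2 groups did not overlap for 3, 4 and 4 of the 6 genes in that order, where 65.5%, 61.3% and 29.9% of all genes did not overlap. In such bulk samples fewer cells of a type and less RNA per cell cannot be told apart.

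**Figure D1:**
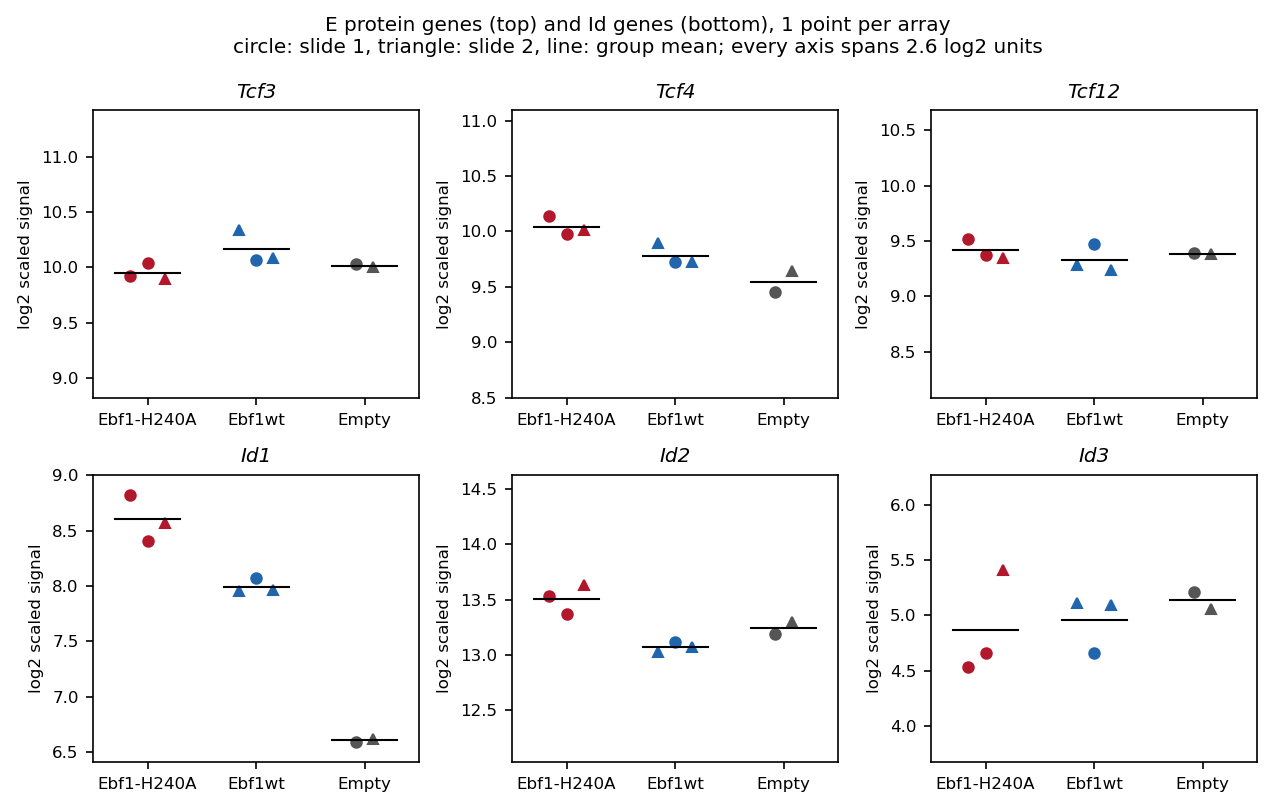
The log2 scaled signal of the 6 tested genes (vertical axes, each spanning 2.6 log2 units) is plotted for each array by group, with circles for slide 1, triangles for slide 2 and a line at the group mean. Id1 lies at 8.41 to 8.82 with Ebf1-H240A, 7.95 to 8.07 with Ebf1wt and 6.59 to 6.62 with Empty, whereas the 8 values of Tcf12 lie between 9.24 and 9.52.

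Tcf3 encodes E2A, the E protein that B-lineage specification depends on. Its brighter probe (chromosome 10, 79872639 to 79872698 of mm9) gave 9.92, 10.04 and 9.90 with Ebf1-H240A, 10.34, 10.07 and 10.09 with Ebf1wt, and 10.03 and 10.00 with Empty. All 3 Ebf1wt arrays lay above the other 5, with Ebf1wt 1 the highest. The difference was -0.06 ± 0.10 for Ebf1-H240A against Empty (adjusted p = 0.66), 0.15 ± 0.10 for Ebf1wt against Empty (adjusted p = 0.265) and -0.21 ± 0.09 for Ebf1-H240A against Ebf1wt (adjusted p = 0.21), none of them called. A second Tcf3 probe (79875963 to 79876022) gave 7.21, 7.61 and 7.32 with Ebf1-H240A, 7.76, 7.73 and 7.60 with Ebf1wt, and 7.63 and 7.56 with Empty. It was not called either, with -0.32 ± 0.11 between both forms (adjusted p = 0.153 over all probes).

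Tcf4 encodes E2-2, an E protein that acts in B-lineage progenitors and is the defining factor of plasmacytoid dendritic cells. Its brightest probe (chromosome 18, 69843681 to 69843740) gave 10.14, 9.98 and 10.01 with Ebf1-H240A, 9.90, 9.72 and 9.72 with Ebf1wt, and 9.45 and 9.64 with Empty. The 3 groups did not overlap, with Ebf1-H240A highest and Empty lowest. Tcf4 was 1.41-fold higher with Ebf1-H240A than with Empty (0.49 ± 0.10, adjusted p = 0.00565), and the difference was 0.61 within slide 1 and 0.36 within slide 2. The neighbours in this order were not separated by the test, at 0.24 ± 0.10 for Ebf1wt against Empty (adjusted p = 0.0955) and 0.26 ± 0.09 for Ebf1-H240A against Ebf1wt (adjusted p = 0.131).

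The other Tcf4 probes gave the same order of group means. The second probe (69842750 to 69842809) averaged 9.23 ± 0.05 with Ebf1-H240A, 9.10 ± 0.17 with Ebf1wt (SD, n = 3 each) and 8.80 ± 0.08 with Empty (SD, n = 2). The dimmest probe, whose bases are spread from 69625100 to 69679676, averaged 4.95 ± 0.07, 4.79 ± 0.15 and 4.41 ± 0.32 in the same groups. All 3 probes were called higher with Ebf1-H240A than with Empty (0.42 to 0.55, adjusted p from 0.00628 to 0.022 over all probes). With Ebf1wt against Empty all 3 missed the threshold, with adjusted p of 0.0598 to 0.102. Because Tcf4 is a gene of plasmacytoid dendritic cells, the markers of that cell type were read on the same arrays. For 7 of 8 markers with a measured probe, the summed linear signal was 67370 to 74940 with Ebf1-H240A, 90880 to 93080 with Ebf1wt and 56620 to 56880 with Empty. Ly6d and Bst2, at group means of 14.42 to 15.50, carried most of this sum. By gene, 2 of the 7 were called higher and 4 lower with Ebf1-H240A (median -0.49), and 3 higher and 4 lower with Ebf1wt (median -0.57), each against Empty. Over all genes 21.6% were called higher and 23% lower with Ebf1-H240A, and 17.2% and 21.3% with Ebf1wt. Siglech, Irf8, Ccr9 and Runx2 fell with both forms. Spib rose with both, by 1.66 with Ebf1-H240A and 1.84 with Ebf1wt, and so did Bst2, by 0.62 and 0.66. Ly6d was called higher with Ebf1wt only (0.95). Between both forms 2 were lower with Ebf1-H240A and 5 did not pass, where 2.72% of all genes were called lower. Of these 2, Siglech passed the background test on no array of either form (means 0.45 and 1.59), so its call there compares unmeasured signals. Klk1 did not pass the background test on any array, and the part of such cells in the Tcf4 signal was not tested.

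Tcf12 encodes HEB, the E protein best known from T-cell development. Its brightest probe (chromosome 9, 71692310 to 71692369) gave 9.52, 9.37 and 9.35 with Ebf1-H240A, 9.28, 9.47 and 9.24 with Ebf1wt, and 9.39 and 9.38 with Empty. The groups overlapped in every comparison, and their means spanned 0.08, the least of the 6 genes. The differences were 0.03 ± 0.09, -0.05 ± 0.09 and 0.08 ± 0.08 for Ebf1-H240A against Empty, Ebf1wt against Empty and Ebf1-H240A against Ebf1wt, with adjusted p of 0.813, 0.695 and 0.615. The 4 Tcf12 probes above background missed the threshold in all 3 comparisons.

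Id1 had the widest span of the network, 1.99 between its lowest and highest group mean, and its 3 groups stood apart. The representing probe (chromosome 2, 152563036 to 152563095) gave 8.82, 8.41 and 8.57 with Ebf1-H240A, 7.95, 8.07 and 7.96 with Ebf1wt, and 6.59 and 6.62 with Empty. Every array with EBF1 lay above both Empty arrays, and every Ebf1-H240A array lay above every Ebf1wt array. Id1 rose 3.98-fold with Ebf1-H240A (1.99 ± 0.12, adjusted p = 3.29e-05) and 2.62-fold with Ebf1wt (1.39 ± 0.12, adjusted p = 0.000205), each against Empty. Within slides 1 and 2 these differences were 2.03 and 1.95 with Ebf1-H240A, and 1.48 and 1.33 with Ebf1wt.

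Between both forms Id1 was 1.52-fold higher with Ebf1-H240A than with Ebf1wt (0.61 ± 0.11, adjusted p = 0.0227), and 0.55 and 0.62 within slides 1 and 2. This call was lost when slide entered the fit as a block (0.59, adjusted p = 0.0566), and when the fit left out Ebf1wt 1, Ebf1wt 2, Ebf1wt 3 or Ebf1-H240A 3 in turn (0.59, 0.64, 0.59 and 0.62, adjusted p = 0.0875, 0.0631, 0.0619 and 0.071). The second Id1 probe, whose interval shares 50 bases with the first, gave 8.70, 8.36 and 8.59 with Ebf1-H240A, 7.93, 8.02 and 7.79 with Ebf1wt, and 6.61 and 6.72 with Empty. It was called in all 3 comparisons, at 1.89 ± 0.12, 1.25 ± 0.12 and 0.64 ± 0.11 for Ebf1-H240A against Empty, Ebf1wt against Empty and both forms. Since both probes cover nearly the same bases, they are no independent measure of the transcript.

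Stromal cells also express Id1, and the cultures held feeder cells, although GFP+ cells were sorted. Of 19 stromal markers 16 were measured, and their summed linear signal was 26420 to 28430 with Ebf1-H240A, 27030 to 33870 with Ebf1wt and 23740 to 23780 with Empty. Thy1 and Acta2, at group means of 13.12 to 14.01, carried most of this sum. Of the 16, 8 rose with Ebf1-H240A and 5 with Ebf1wt, the other 8 and 11 did not pass, and 1 was higher with Ebf1-H240A than with Ebf1wt. Over all genes 21.6%, 17.2% and 3.64% were called higher in these comparisons. Pdgfra, Postn and Lum did not pass the background test on any array. The part of stromal RNA in the Id1 signal was not tested.

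**Figure D2:**
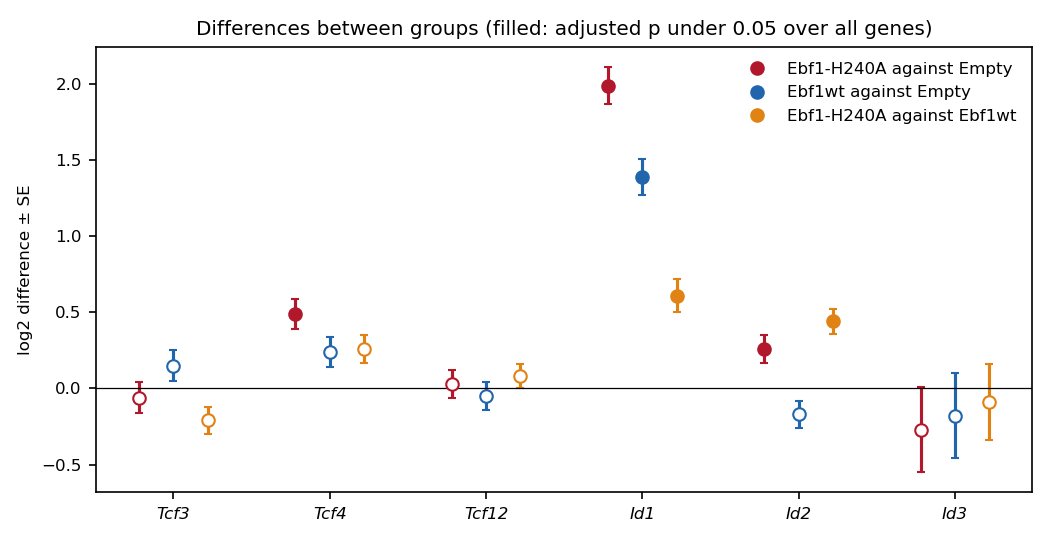
Log2 differences with their SE (vertical axis) are shown for the 6 tested genes in the 3 comparisons, filled where the adjusted p was under 0.05 over all genes. The Id1 differences of 1.99, 1.39 and 0.61 stand above those of the other genes, which lie between -0.27 and 0.49.

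Id2 differed from Id1 in its order, with Ebf1-H240A highest, Empty next and Ebf1wt lowest. Id2 restrains E proteins in natural killer and other innate lymphoid cells and in several myeloid cells. Its probe over the stop codon gave 13.53, 13.37 and 13.63 with Ebf1-H240A, 13.03, 13.12 and 13.07 with Ebf1wt, and 13.19 and 13.30 with Empty. No groups overlapped. Id2 was 1.35-fold higher with Ebf1-H240A than with Ebf1wt (0.44 ± 0.08, adjusted p = 0.0266), and 1.2-fold higher with Ebf1-H240A than with Empty (0.26 ± 0.09, adjusted p = 0.0487). Ebf1wt and Empty were not separated by the test (-0.17 ± 0.09, adjusted p = 0.176).

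Within slides 1 and 2 the Id2 difference between both forms was 0.33 and 0.58, and that of Ebf1-H240A against Empty was 0.26 and 0.33. The call between both forms was lost without any 1 of the Ebf1wt arrays (0.41, 0.46 and 0.43 without arrays 1, 2 and 3, adjusted p = 0.0969, 0.0731 and 0.0648) and without Ebf1-H240A 1 or 3 (0.43 and 0.38, adjusted p = 0.0919 and 0.0735). The call against Empty, at the edge of the threshold, was lost when any array other than Ebf1-H240A 2 was left out (0.21 to 0.32, adjusted p from 0.0678 to 0.215) and when slide entered the fit as a block (0.28, adjusted p = 0.0556).

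The 3 Id2 probes moved unequally. The probe farthest downstream (25778904 to 25778963) gave 13.25, 13.04 and 13.22 with Ebf1-H240A, 12.59, 12.73 and 12.58 with Ebf1wt, and 12.91 and 12.88 with Empty, which is the order of the stop-codon probe. It was higher with Ebf1-H240A than with Ebf1wt (0.53 ± 0.08, adjusted p = 0.015) and than with Empty (0.27 ± 0.09, adjusted p = 0.0432), and -0.26 ± 0.09 with Ebf1wt against Empty (adjusted p = 0.0554). The third probe, listed in the files under a cDNA clone and not under the reference transcript, lies 43 bases beyond the interval of the stop-codon probe (25780080 to 25780139). It gave 9.51, 9.56 and 9.69 with Ebf1-H240A, 8.30, 8.65 and 8.72 with Ebf1wt, and 9.37 and 9.50 with Empty. The 3 Ebf1wt arrays were the lowest by a wide margin on this probe, while the other groups lay close together.

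The clone probe fell by 0.88 ± 0.14 with Ebf1wt against Empty (adjusted p = 0.00294) and was higher with Ebf1-H240A than with Ebf1wt by 1.03 ± 0.12 (adjusted p = 0.00781), but was not called with Ebf1-H240A against Empty (0.15 ± 0.14, adjusted p = 0.402). Within each array, the gap (clone probe minus stop-codon probe) was -4.02, -3.81 and -3.94 with Ebf1-H240A, -4.73, -4.47 and -4.35 with Ebf1wt, and -3.82 and -3.80 with Empty. Only the change of that gap between arrays can be read, since signals of different probes have no common scale. The gap was wider with Ebf1wt than with Empty (difference -0.70), and narrower with Ebf1-H240A than with Ebf1wt (difference 0.60), with no overlap in either comparison. Each reached p = 0.1 in a two-sided exact permutation test, the smallest that 3 arrays against 2 or 3 can give, and the test was chosen after the values had been seen. Whether the clone probe reads a separate Id2 transcript was not tested.

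**Figure D3:**
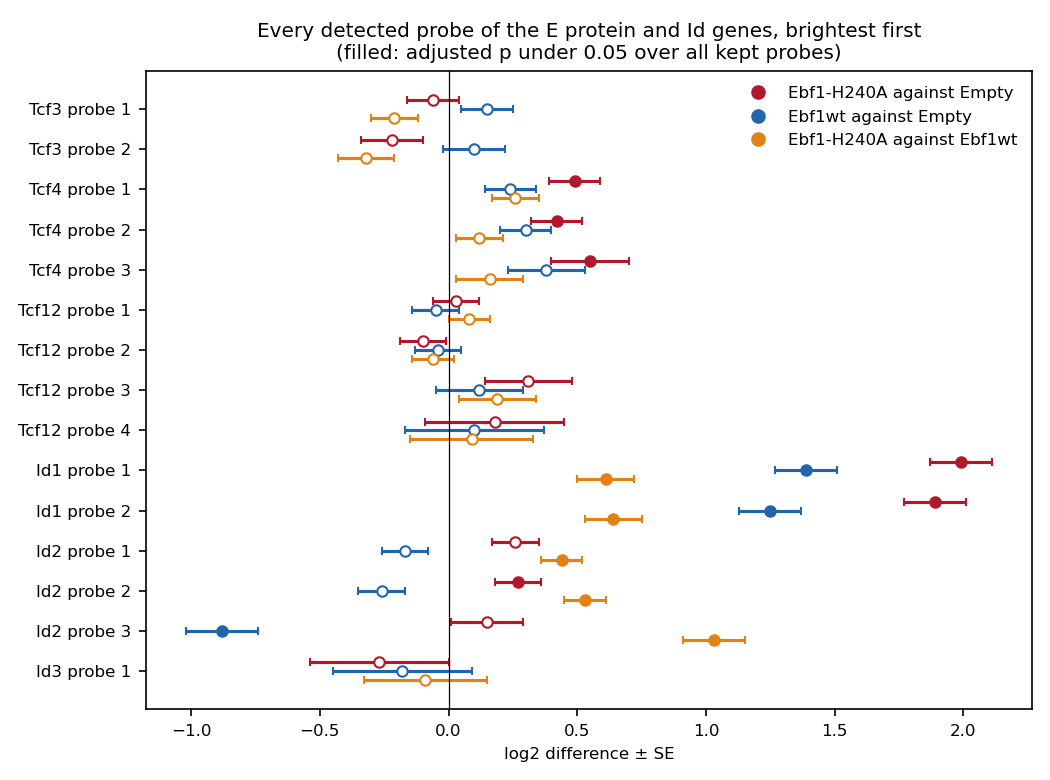
Log2 differences with their SE (horizontal axis) are shown for the 15 detected probes of the 6 genes, brightest first within a gene and filled where the adjusted p was under 0.05 over all probes. The third Id2 probe stands apart from the other Id2 probes, at -0.88 for Ebf1wt against Empty and 1.03 for Ebf1-H240A against Ebf1wt.

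Because Id2 is a gene of innate lymphoid and myeloid cells, both marker lists were read beside it. For 10 of 11 T and innate lymphoid markers, the summed linear signal was 16120 to 18280 with Ebf1-H240A, 16060 to 17740 with Ebf1wt and 27800 to 29200 with Empty. For 10 of 11 myeloid markers it was 146600 to 164400 with Ebf1-H240A, 146800 to 158200 with Ebf1wt and 115200 to 122900 with Empty. Both sums separated Empty from both forms of EBF1, whose ranges overlapped, but each was carried mostly by 1 gene. That gene was Ly6c2 for the myeloid sum, at group means of 16.53 to 16.99. For the T and innate lymphoid sum it was Klrd1, at 13.68 to 14.24. By gene, 7 of the 10 myeloid markers rose and 3 fell with Ebf1-H240A (median 1.04), and 4 were called higher and 3 lower with Ebf1wt (median 0.45), each against Empty. Between both forms Mpo, Prtn3 and S100a9 were higher with Ebf1-H240A, and the other 7 were not called (median 0.57 over all 10). Id2 was also higher in that comparison, but the order of all 3 groups was not shared by Mpo and Prtn3. Against Empty, Mpo fell with Ebf1-H240A (-1.49) and with Ebf1wt (-2.95), whereas Prtn3 rose with both (2.04 and 1.47). S100a9 passed the background test on no array of Ebf1wt or Empty. Lyz2, the lysozyme gene, averaged 14.85 with Ebf1-H240A, 14.12 with Ebf1wt and 14.16 with Empty; it rose with Ebf1-H240A against Empty (adjusted p = 0.0322) and missed the threshold between both forms (adjusted p = 0.0689). Of the 10 T and innate lymphoid markers, 2 rose and 6 fell with Ebf1-H240A, 1 rose and 6 fell with Ebf1wt, and 1 was higher and 9 did not pass between both forms. Over all genes, 21.6% were called higher and 23% lower with Ebf1-H240A against Empty, 17.2% and 21.3% with Ebf1wt, and 3.64% higher between both forms. Elane was the myeloid marker that passed the background test on none of the arrays. The part of these cell types in the Id2 signal was not tested.

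Id3 and Id4 were the low end of the network. Id3, an inhibitor expressed in many lymphocytes, had a single probe (chromosome 4, bases spread over 135700075 to 135700249). It gave 4.53, 4.66 and 5.41 with Ebf1-H240A, 5.11, 4.66 and 5.09 with Ebf1wt, and 5.21 and 5.06 with Empty. The groups overlapped in all 3 comparisons, and Ebf1-H240A 3 was the highest array of all while the other arrays of its group were the lowest, beside Ebf1wt 2. The differences were -0.27 ± 0.28, -0.18 ± 0.28 and -0.09 ± 0.25 for Ebf1-H240A against Empty, Ebf1wt against Empty and both forms (adjusted p = 0.469, 0.649 and 0.877). The SE of Id3 was the largest of the 6 genes, so a change of the size seen for Tcf4 or Id2 was not detectable for it. The 2 Id4 probes (chromosome 13) read 0.27 to 1.5 with Ebf1-H240A, 0.28 to 2.04 with Ebf1wt and 0.00 to 0.92 with Empty. Those values did not pass the background test on any array, where the dimmest well-measured probe read 2.06 to 3.03, and no fold was taken.

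The balance of E protein and Id signals was then taken within each array, as the mean log2 signal of Tcf3, Tcf4 and Tcf12 minus that of Id1, Id2 and Id3. It is a description of the chosen genes and was not tested. The balance was 0.90, 0.99 and 0.55 with Ebf1-H240A, 1.14, 1.14 and 0.98 with Ebf1wt, and 1.29 and 1.35 with Empty. Both Empty arrays lay above the 6 arrays with EBF1, and the ranges of Ebf1-H240A and Ebf1wt overlapped, with Ebf1-H240A 2 at 0.99 and Ebf1wt 3 at 0.98. Group means were 0.81 ± 0.23 with Ebf1-H240A, 1.09 ± 0.09 with Ebf1wt (SD, n = 3 each) and 1.32 ± 0.04 with Empty (SD, n = 2). The differences were thus -0.51 for Ebf1-H240A against Empty, -0.23 for Ebf1wt against Empty and -0.28 between both forms, beside a pooled SD within groups of 0.16.

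The mean Id signal differed by 0.66, 0.34 and 0.32 in the same 3 comparisons, each more than the balance did. The mean E protein signal differed by 0.16, 0.11 and 0.04, also upward, and so against the change of the balance. The lowest balance, 0.55 on Ebf1-H240A 3, coincided with the highest Id3 signal. With the noisy Id3 left out of the Id mean, the balance was -1.31, -1.09 and -1.35 with Ebf1-H240A, -0.65, -0.84 and -0.83 with Ebf1wt, and -0.27 and -0.29 with Empty. The 3 groups then did not overlap, and the differences were -0.97, -0.50 and -0.48.

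Summing linear signals in place of averaging logs changed the order. The log2 ratio of summed E protein to summed Id signal was -2.12, -2 and -2.31 with Ebf1-H240A, -1.59, -1.81 and -1.80 with Ebf1wt, and -1.98 and -2.04 with Empty. Ebf1wt was then higher than Empty by 0.27, the opposite direction to the mean of logs, and Ebf1-H240A lay at -0.14 from Empty and -0.41 from Ebf1wt. Id2 made up 96.2% to 98.7% of the summed Id signal, so that this ratio followed Id2 and not Id1. Since the probes have no common scale, these data do not settle which summary is nearer to the amounts of RNA, and protein was not measured.

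**Figure D4:**
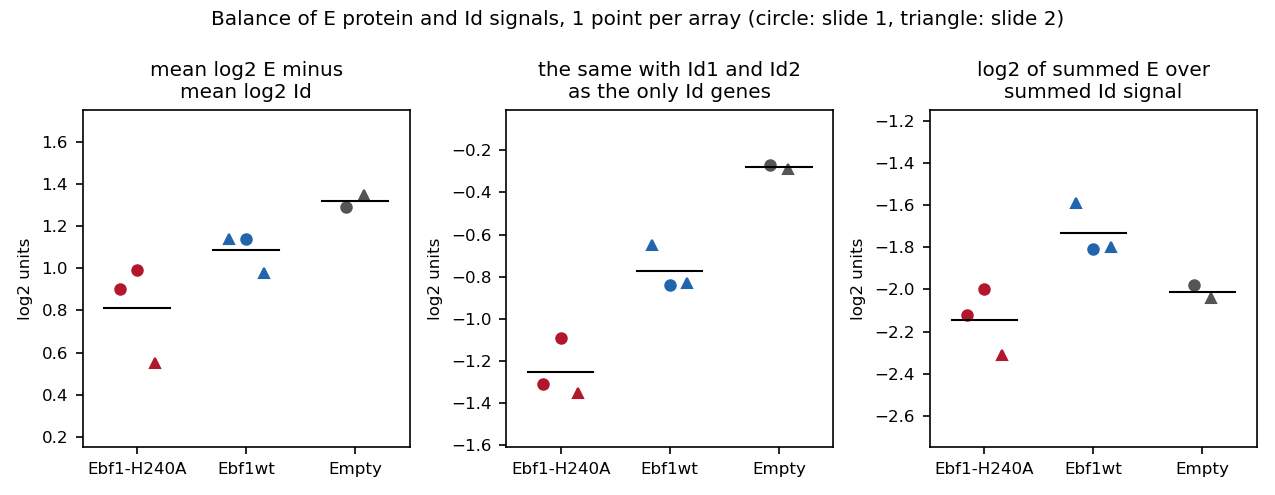
The balance of E protein and Id signals per array (vertical axes, log2 units) is plotted by group for 3 summaries, with circles for slide 1, triangles for slide 2 and lines at group means. The mean of logs is lowest with Ebf1-H240A, next with Ebf1wt and highest with Empty (0.81, 1.09 and 1.32), also with Id1 and Id2 as the only Id genes, but the ratio of sums is highest with Ebf1wt.

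Taken pair by pair, the balance depended on which Id gene was set against the E proteins. All 3 pairs with Id1 were lower with Ebf1-H240A (-1.5 to -2.05) and with Ebf1wt (-1.15 to -1.44) than with Empty, and lower with Ebf1-H240A than with Ebf1wt (-0.35 to -0.82), with no overlap of groups. The pairs with Id2 were lower with Ebf1-H240A than with Ebf1wt as well (-0.18 to -0.65), without overlap for Tcf3 and Tcf12. Against Empty they were higher with Ebf1wt (0.12 to 0.41), and with Ebf1-H240A they were lower for Tcf3 and Tcf12 (-0.32 and -0.23) and higher for Tcf4 (0.23). Over all 9 pairs, 5 were lower and 4 higher with Ebf1-H240A against Empty, 3 lower and 6 higher with Ebf1wt against Empty, and 7 lower and 2 higher with Ebf1-H240A against Ebf1wt. The 9 pairs share 6 genes and are not independent.

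**Figure D5:**
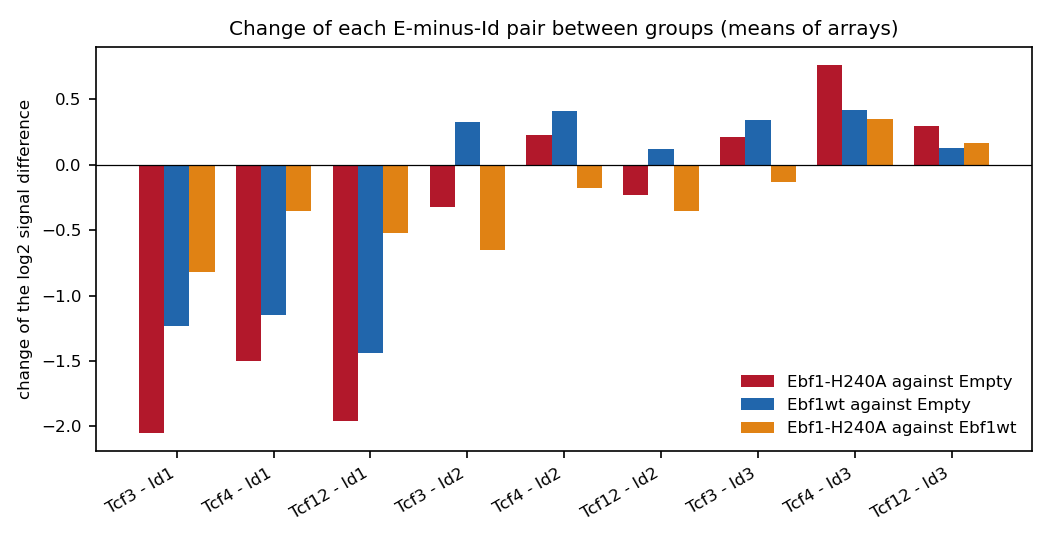
Bars give the change between groups of each E protein minus Id log2 signal (vertical axis, log2 units, means of arrays) in the 3 comparisons. The Id1 pairs are lower in all 3 (-0.35 to -2.05), and against Empty the Id2 pairs with Tcf3 and Tcf12 are lower with Ebf1-H240A but higher with Ebf1wt, while the Tcf4 pair is higher with both (0.23 and 0.41).

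Other genes of the network were read from lists by role. Beside the counts that follow, 21.6% of all genes were called higher and 23% lower with Ebf1-H240A against Empty. With Ebf1wt against Empty the shares were 17.2% and 21.3%, and between both forms 3.64% and 2.72%. E proteins pair with tissue-restricted helix-loop-helix factors, of which 10 of 23 were measured. With Ebf1-H240A against Empty 4 rose, 1 fell and 5 did not pass (median 0.32), with Ebf1wt against Empty 2 rose, 2 fell and 6 did not pass (median 0.07), and between both forms 1 was higher, 1 lower and 8 did not pass (median 0.23). Tcf15, known from the paraxial mesoderm, was not well above background with Empty and rose at least 4.83-fold with Ebf1-H240A (adjusted p = 3.02e-05) and at least 2.88-fold with Ebf1wt (adjusted p = 8.5e-05). Bhlha15, the secretory-cell factor also called Mist1, rose by 2.05 ± 0.15 with Ebf1-H240A and 2.70 ± 0.15 with Ebf1wt, and was lower with Ebf1-H240A than with Ebf1wt (-0.65 ± 0.13, adjusted p = 0.0348).

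Tal1 and Lyl1 are the blood-forming partners. Tal1 gave 2.56, 3.42 and 2.54 with Ebf1-H240A, 2.97, 3.01 and 2.58 with Ebf1wt, and 4.85 and 4.49 with Empty, so that both Empty arrays lay above the other 6. It passed the background test on no Ebf1wt array and fell at least 3.17-fold there (adjusted p = 0.00332). With Ebf1-H240A, where 1 of 3 arrays measured it, the difference was -1.82 ± 0.29 (adjusted p = 0.00258). Lyl1 gave 11.52, 11.46 and 11.29 with Ebf1-H240A, 10.39 to 10.53 with Ebf1wt, and 11.18 and 11.09 with Empty, which is the order of Id2. It rose by 0.29 ± 0.09 with Ebf1-H240A (adjusted p = 0.0357), fell by 0.66 ± 0.09 with Ebf1wt (adjusted p = 0.00142), and was higher with Ebf1-H240A than with Ebf1wt by 0.95 ± 0.08 (adjusted p = 0.00218).

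Cofactors that bind E proteins or their partners were measured for 12 of 13 genes. With Ebf1-H240A 3 rose, 5 fell and 4 did not pass (median -0.08), with Ebf1wt 1 rose, 3 fell and 8 did not pass (median -0.23), and 1 of 12 was called between both forms, higher with Ebf1-H240A. That gene was Lmo2, the LIM-domain bridge of Tal1 and E2A complexes, at 8.90, 8.80 and 8.85 with Ebf1-H240A, 8.34, 8.39 and 8.22 with Ebf1wt, and 7.15 and 7.20 with Empty. Its differences were 1.68 ± 0.07, 1.15 ± 0.07 and 0.53 ± 0.06 (adjusted p = 8.49e-06, 5.06e-05 and 0.00729), and the 3 groups did not overlap. The corepressor gene Cbfa2t3, also called Eto2, fell by 1.18 ± 0.12 with Ebf1-H240A and by 0.85 ± 0.12 with Ebf1wt. Lmo1 fell by 0.95 ± 0.13 and 0.48 ± 0.13 in the same order.

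Repressors that compete for E-boxes were measured for all 5 genes listed. Zeb2 rose by 0.91 ± 0.08 with Ebf1-H240A and 0.87 ± 0.08 with Ebf1wt. Snai1 gave 7.98, 8.07 and 8.08 with Ebf1-H240A, 6.75, 7.12 and 7.24 with Ebf1wt, and 6.78 on both Empty arrays. Only the Ebf1-H240A arrays stood apart, at 1.26 ± 0.14 against Empty (adjusted p = 0.000523) and 1.01 ± 0.13 against Ebf1wt (adjusted p = 0.00848). With Ebf1-H240A 2 rose and 3 did not pass (median 0.33), with Ebf1wt 1 rose, 1 fell and 3 did not pass (median 0.15), and between both forms 1 was higher and 4 did not pass (median 0.18).

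Of 5 genes known to act on the turnover of E2A or Id proteins, 4 fell with Ebf1-H240A and with Ebf1wt, and 1 did not pass, with medians of -0.48 and -0.35, where 23.0% and 21.3% of all genes were called lower. Between both forms all 5 missed the threshold (median -0.15). Usp1, whose product removes ubiquitin from ID proteins in human cells, fell by 0.48 ± 0.09 with Ebf1-H240A and 0.40 ± 0.09 with Ebf1wt. Skp2, a ubiquitin ligase subunit, fell by 1.08 ± 0.13 and 0.85 ± 0.13, and Stub1, a chaperone-linked ligase, by 0.50 ± 0.07 and 0.35 ± 0.07. Fzr1, which directs the anaphase-promoting complex to its targets, fell by 0.47 ± 0.08 and 0.27 ± 0.08.

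Id1 and Id3 are textbook targets of BMP signalling through SMAD1 and SMAD5, and 15 of 21 BMP, TGF-beta and SMAD genes were measured. With either form against Empty, 1 rose, 5 fell and 9 did not pass (medians -0.06 with Ebf1-H240A and -0.21 with Ebf1wt), and between both forms 1 was higher, 1 lower and 13 did not pass (median 0.06). Smad5 fell by 0.86 ± 0.09 with Ebf1-H240A and 0.93 ± 0.09 with Ebf1wt, and the feedback inhibitor gene Smad7 by 0.59 ± 0.08 with each. The ligand gene Tgfb1 rose by 0.85 ± 0.06 and 0.73 ± 0.06. The receptor gene Tgfbr1 fell by 0.66 ± 0.08 with Ebf1-H240A and was lower there than with Ebf1wt (-0.45 ± 0.07, adjusted p = 0.0158).

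Known targets of E proteins in lymphoid cells, many of which EBF1 also regulates, were measured for 24 of 27 genes. With Ebf1-H240A against Empty 11 rose, 10 fell and 3 did not pass (median 0.28), and with Ebf1wt against Empty 13 rose, 7 fell and 4 did not pass (median 0.58). Between both forms 1 was higher, 6 were lower and 17 did not pass (median -0.18), where 2.72% of all genes were called lower. The largest changes against Empty were rises with either form. Igll1 rose at least 319-fold with Ebf1-H240A and at least 933-fold with Ebf1wt. In the same order Vpreb1 rose by 5.38 and 8.98, Vpreb2 by 4.13 and 7.69, and Cd79b by 5.17 and 4.94. Between both forms Igll1, Vpreb1 and Vpreb2 were lower with Ebf1-H240A, and Cd79b was not called. Rag1, which encodes a subunit of the V(D)J recombinase, gave 4.02, 4.71 and 3.84 with Ebf1-H240A, 7.35, 7.11 and 7.16 with Ebf1wt, and 5.11 on both Empty arrays. The Ebf1-H240A arrays were the lowest and the Ebf1wt arrays the highest, and the difference between both forms was -3.02 ± 0.22 (adjusted p = 0.00135).

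Genes whose pattern was most like that of Id1 were sought by Pearson correlation of log2 signal over the 8 arrays, among 1721 genes whose group means span at least 1 on the log2 scale. The 3 highest were Il1f9, an interleukin 1 family gene whose Empty mean of 0.92 lay under the dimmest well-measured signal (r = 0.9974), the membrane protein gene Myadm (r = 0.9965) and Cebpb, a myeloid transcription factor (r = 0.9958). Cebpb averaged 13.41 with Ebf1-H240A, 12.78 with Ebf1wt and 11.18 with Empty, the same order as Id1. The arrays share groups and slides, so these coefficients describe the likeness and carry no test. No other member had group means that span 1.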

How the data were processed

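Each of the 8 samples, with 0.2 ug of RNA, was hybridised to a one-colour Agilent array. The submitters' processing notes name Agilent Feature Extraction 10.5.1.1 for reading the scans. Per the file headers, the processed signal is a background-corrected linear intensity, and probe positions are those of mm9. The authors also deposited a table of log2 values for these arrays (column medians 4.90 to 4.93, r = 0.972 to 0.979 with the scanner values, same direction). Its normalization and centring are not stated, and it served only as an alternative.

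Intensities of 43379 non-control spots were scaled to a common 75th percentile (232 to 326 before scaling), values under 1 were set to 1, and logs to base 2 were used. Spots of a probe were averaged without outlier spots, giving 41174 probes. A probe was kept if well above background on at least 2 of 8 arrays (25007 probes, 24 of them dropped for a missing value), and the brightest kept probe on average stood for its gene, giving 16309 genes. Where a gene passed the background test on none of a group's arrays, its fold is a bound: the other group's mean against, per array, the higher of its own signal and the lowest signal among well-measured probes. Names were updated through RefSeq gene tables of GRCm38.p6: 27816 probes by accession, 5503 by symbol and 380 by older symbol, while 7475 kept the file's name.

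Groups were compared with limma 3.58.1 under R 4.3.3 (lmFit, then eBayes, two-sided, no covariate, all 8 arrays, 5 residual degrees of freedom), with Benjamini-Hochberg adjustment over all genes or, for single probes, over all 24983 probes. The procedure was tested on simulated data. Whether replicates are separate cultures or animals is not in the labels, and p-values therefore reflect only the spread among these samples, possibly technical. The number of arrays limits the precision.

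The genes, lists and tests were chosen with earlier results of these data known. Of each list the text names at most the 4 called genes with the largest change per comparison, and for a gene whose group means span at least 1, the 3 genes most correlated with it. Alternatives covered scaling, background correction, source of values, filter, probe choice, floor, outliers, blocks, slides and single arrays. Promoter and motif matches come from RefSeq windows of 250 bases before to 50 after a start.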

Additional observations from a re-analysis of the deposited data

How the results depend on the processing

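Each of the 18 gene differences was recomputed under 22 alternatives. Id1 stayed called higher in 20 of 22 with either form of EBF1 against Empty, and Tcf4 in 20 of 22 with Ebf1-H240A; the exceptions were the fits within a slide, which have 1 residual degree of freedom. Between both forms, Id1 and Id2 were called in 13 of 22 each, and Id2 with Ebf1-H240A against Empty in 7 of 22. No alternative reversed a called gene difference.

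Between both forms, 1038 genes were called, against 641 with the deposited value table, 338 without the filter on dim probes, 646 with the slide as a block, and 0 within slide 1 and 0 within slide 2 by limma, where 1526 and 1600 had an unadjusted p under 0.05. The members called between both forms were 0 without the filter (3 at unadjusted p), 1 with the slide as a block, and 0 and 0 within the slides (0 and 2 at unadjusted p). Against Empty, slides 1 and 2 gave 1096 and 322 genes with Ebf1-H240A and 133 and 398 with Ebf1wt, and 0 members in each (3 and 1, and 2 and 1, at unadjusted p). With the mean over the probes of a gene, 3 members were called with Ebf1wt against Empty: Id1, Tcf4 (0.31, adjusted p = 0.0458) and, lower, Id2 (-0.44, adjusted p = 0.00823). When 1 array was left out, the counts of all genes were 5424 to 7374 with Ebf1-H240A, 4193 to 6025 with Ebf1wt and 365 to 839 between both forms, and those of members 2 to 3, 1 to 1 and 0 to 2. The count between both forms fell most without Ebf1wt 1 (365), Ebf1wt 2 (441), Ebf1-H240A 1 (448), Ebf1-H240A 3 (449) and Ebf1wt 3 (683).

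The balance ranged from -0.59 to -0.38, from -0.26 to -0.18 and from -0.36 to -0.14 in the same order when 1 array was left out. Within slides 1 and 2 it was -0.35 and -0.80 for Ebf1-H240A against Empty, -0.15 and -0.29 for Ebf1wt against Empty, and -0.20 and -0.51 between both forms. For Ebf1wt against Empty it shrank to -0.08 after normexp and quantile normalization, -0.08 with the mean over probes and -0.15 in the deposited table, against -0.23; between both forms it was -0.14 without Ebf1-H240A 3. Added after the data had been seen, the ratio of linear sums gave -0.14 for Ebf1-H240A and 0.27 for Ebf1wt against Empty, a reversal, and leaving out Id3 gave -0.97, -0.50 and -0.48.

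Only differences that were not called changed sign. For Tcf12 with Ebf1wt against Empty they were 0.07 after normexp, 0.07 in the deposited table, 0.03 as a mean over probes and 0.09 within slide 1. Tcf12 turned to -0.03 within slide 2 and -0.02 without Ebf1-H240A 1 for Ebf1-H240A against Empty (-0.02 to 0.06 over the arrays left out), and to -0.03 within slide 1 between both forms. Id3 turned to 0.35 within slide 2 with Ebf1-H240A and 0.04 with Ebf1wt against Empty, and between both forms to 0.05 with the slide as a block, 0.31 within slide 2, 0.08 without Ebf1-H240A 1 and 0.02 without Ebf1-H240A 2 (-0.36 to 0.08 over the arrays left out). The cause was not tested.

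With the replicate block, 360 genes and 0 members (3 at unadjusted p) were called between both forms, Id1 at adjusted p = 0.0794 and Id2 at 0.0857, and Id2 lost its call against Empty (adjusted p = 0.141). Same-numbered arrays of both forms correlated at r = 0.16, -0.23 and 0.09 in their deviations, so the numbers were not taken to pair the arrays. No scaling moved the median of all genes by more than 0.05.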
